A study of Arabidopsis thaliana with 8 samples.

Results

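The genes described here encode the WRKY transcription factors of Arabidopsis thaliana. Members were all nuclear protein-coding genes whose symbol in the RefSeq gene table is WRKY followed by a number, which gave 67 of 27444 genes. Another 5 genes carry a WRKY name only as a synonym (ZAP1, TTG2, ABO3, TTR1 and RRS1) and were not counted. The question was where on these genes ENAP1 was found after ethylene treatment and in air.

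WRKY factors are plant transcription factors that contact DNA through a domain named after its conserved amino acids, and many of them recognise the W-box, a short element that is also common in the promoters of WRKY genes themselves. They are best known for roles in immunity, in which kinase cascades and salicylic acid act on them, and also for roles in senescence, nutrient supply and growth. The family is divided into groups by the number of WRKY domains and the type of zinc finger: group I members mostly carry a pair of WRKY domains, group II is split into IIa to IIe, and group III has a different zinc finger. ENAP1 is a nuclear protein that associates with histones and with EIN2, the membrane protein at the centre of ethylene signalling.

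DNA held by ENAP1 was recovered with an anti-GFP antibody (green fluorescent protein) and sequenced (ChIP-seq). The ethylene group was whole ein3 eil1 seedlings of ecotype Col-0, grown in darkness for 3 days at 24 °C and exposed for 4 h to 10 ppm ethylene. The air group was the same genotype, age and growth, held for 4 h in air free of hydrocarbons. Every sample, inputs included, carried the ein3 eil1 mutations, so the transcription factors EIN3 and EIL1 were absent throughout. The tagged ENAP1 construct, its promoter and the number of lines behind it are not given in the sources used here. Each treatment had 2 ChIP and 2 input samples, which the authors turned into 1 list of bound regions, 3293 for ethylene and 4526 for air. There is no value per replicate. Differences between the lists are therefore set side by side without a test, and a gene missing from a list may still carry ENAP1 below the level of a call.

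ENAP1 was found at 19 of the 67 WRKY genes in at least 1 list, or 28.4%, where 23.5% of all nuclear protein-coding genes were bound in at least 1. A gene was called bound when the summit of a region, its point of highest signal, was no more than 1000 bp outside or 500 bp inside either end of the gene. In the ethylene list 15 WRKY genes were bound, or 22.4% (exact 95% interval 13.1 to 34.2), against 15.9% of all genes. In the air list 15 were bound as well, again 22.4% (13.1 to 34.2), against 21% of all genes. Both lists held 11 WRKY genes, or 16.4% (8.49 to 27.5), against 13.3% of all genes. Only in the ethylene list were WRKY4, WRKY13, WRKY32 and WRKY75, 5.97% of the family against 2.59% of all genes. Only in the air list were WRKY11, WRKY51, WRKY65 and WRKY70, also 5.97%, against 7.68% of all genes. The lists end at different levels, with a lowest −log10 q of 6.05 in ethylene and 8.34 in air. The counted ethylene regions of WRKY75 (7.86), WRKY22 (6.64), WRKY36 (6.05) and WRKY69 (7.99) were below the lowest value of the air list. Calls in the 2 lists were therefore not made at 1 common level. The intervals cover counting error only, and each printed here includes the share of all genes. Counts depended on the window and on the strength asked of a region. From 500 bp outside to 200 bp inside an end, 8 of the 67 WRKY genes were bound in ethylene and 7 in air. As shares of the 67, these were close to that of all genes in ethylene (11.6%) and below it in air (15.8%). With regions above the median −log10 q of their list, 7 WRKY genes were bound in ethylene and 5 in air. Their share was then above that of all genes in ethylene (8.34%) and below it in air (11.3%).

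The bound members were spread over every group of the family except IIa. Group IIe had the most by share, 4 of 7, with 3 bound in the ethylene list and 4 in the air list. Of all genes, 23.5% were bound in at least 1 list. Most group IIe regions were weak: with only regions above the median −log10 q of their list, WRKY27 in ethylene was the only one of these genes still bound. Group IIb had 3 of 8, and the same 3 genes were bound in both lists. Group IIc had 4 of 17, group I 3 of 12, group III 3 of 12 and group IId 2 of 7. All 3 members of group IIa, WRKY18, WRKY40 and WRKY60, which act together in defence and in abscisic acid responses, were in neither list. WRKY45 was not placed in a group here and was not bound. The groups are small and no group was tested against another.

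**Figure D1:**
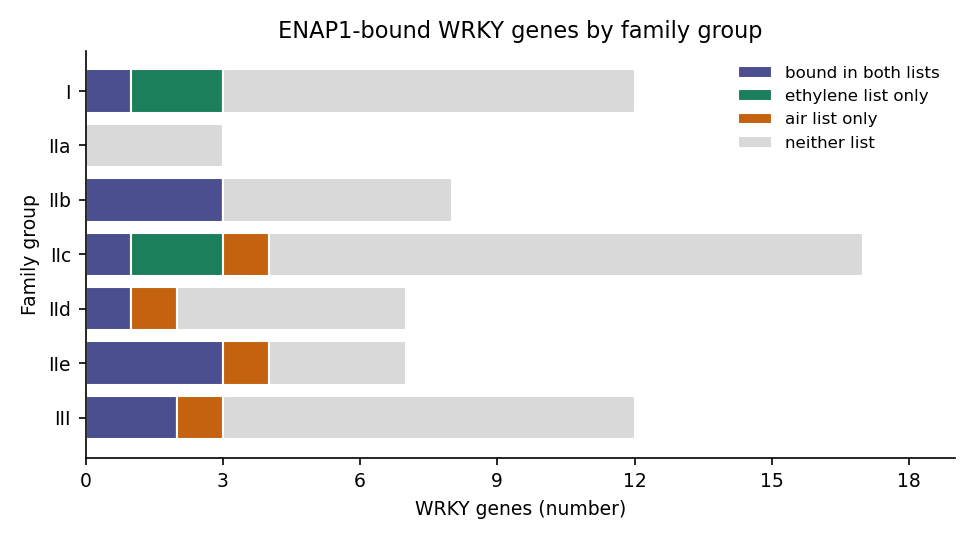
Number of WRKY genes (x axis) in each family group (y axis), coloured by whether the gene was bound in both lists, in the ethylene list only, in the air list only or in neither. Group IIe has 4 of 7 members bound and group IIa 0 of 3.

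Within the window, the region with the highest fold enrichment at any WRKY gene lay at WRKY48 (AT5G49520, group IIc), which encodes a factor that restrains basal resistance to bacteria. Its fold enrichment, the authors' ratio of ChIP signal over the local background, was 4.39 in the ethylene list, at rank 312 of 3293 (chromosome 5, 20090319 to 20090581, TAIR10). In the air list it was 15.99, at rank 30 of 4526 (20090356 to 20090738). The lists differ in scale, with a median fold of 2.84 in the ethylene list and 5.06 in the air list, so the folds are read only within a list. In ethylene the values give a pile-up of 99.9 against a background of 22. Pile-ups of the ethylene list were fitted as whole numbers times 0.602. Read as a scaling of the ChIP fragments, which no label states, this one stands for 166 fragments. The ethylene fragment counts that follow rest on that reading, and without it they are pile-ups 0.602 times as high. In air they give 78 fragments, with no such scaling, against a background of 3.94, the lowest of that list. The −log10 p was 33.2 in the ethylene list and 71.6 in the air list. Both summits were outside the gene, 159 bp from its end in ethylene and 158 bp in air, and neither fell in the window of another protein-coding gene.

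Group IIb held 3 genes bound in both lists. WRKY6 (AT1G62300), a factor of senescence and defence that also represses the phosphate exporter gene PHO1, had a fold of 3.08 in ethylene (116 fragments, rank 1263; chromosome 1, 23019257 to 23019578) and 8.75 in air (58 fragments, rank 452; 23019245 to 23019665). Its summits lay 39 bp inside the gene in ethylene and 42 bp inside in air. PHO1 itself was in neither list. WRKY47 (AT4G01720) had a fold of 3.13 in ethylene (206 fragments, rank 1202; chromosome 4, 744020 to 744331) and 5.71 in air (73 fragments, rank 1600; 743963 to 744278), with summits 655 and 652 bp outside. WRKY36 (AT1G69810), which represses the light signalling gene HY5, was low in both lists, and its regions lay at opposite ends of the gene. In ethylene the fold was 2.67 (70 fragments, rank 1978), 272 bp outside 1 end, and its −log10 p of 8.43 equalled the lowest of that list. In air it was 4.05 (36 fragments, rank 3577), 633 bp outside the other end and 21 bp inside the neighbouring gene AT1G69800.

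In group IIe, WRKY27, WRKY22 and WRKY69 were bound in both lists and WRKY65 in the air list. WRKY27 (AT5G52830), which affects the wilt caused by Ralstonia, had 1 ethylene region with a fold of 3.47 (112 fragments, rank 799; chromosome 5, 21411787 to 21412250). The air list had 3 regions there, with folds of 4.82, 5.30 and 4.85 (43, 29 and 34 fragments) at summits 143 bp inside one end and 341 bp inside and 367 bp outside the other. The ethylene region and the second of these overlapped, and at 464 and 472 bp they were the widest regions at any WRKY gene in their lists. WRKY22 (AT4G01250), which acts downstream of a kinase cascade set off by bacterial flagellin, was low in both lists. Its fold was 2.03 in ethylene (143 fragments, rank 3033) and 3.88 in air (40 fragments, rank 3779), and the summits, 154 bp and 333 bp inside the gene, were at opposite ends and 1232 bp apart. A further region was shared by both lists, with a fold of 3.08 in ethylene, 1110 bp outside WRKY22, and 5.35 in air, 1122 bp outside, which is beyond the window.

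WRKY69 (AT3G58710) had a fold of 2.28 in ethylene (131 fragments, rank 2682), 234 bp inside the gene, and 4.62 in air (39 fragments, rank 2834), 209 bp inside. A further shared region deeper in WRKY69, with summits 680 bp inside in ethylene and 684 bp in air, had folds of 2.07 and 5.32. WRKY65 (AT1G29280) was in the air list only, with a fold of 6.48 on 31 fragments (rank 1108; chromosome 1, 10236225 to 10236520), 89 bp inside the gene. The nearest ethylene summit was 7744 bp from that air summit. WRKY14, WRKY29 and WRKY35 of the same group were in neither list. WRKY29 is named with WRKY22 in the flagellin response, and its nearest summit was 38288 bp away in ethylene and 38298 bp in air.

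Group III genes act in salicylic acid responses and senescence, and 3 were bound. WRKY46 (AT2G46400), which with WRKY54 and WRKY70 works in brassinosteroid-driven growth, had a fold of 3.34 in ethylene (126 fragments, rank 936; chromosome 2, 19042942 to 19043190) and 8.30 in air (47 fragments, rank 520; 19042909 to 19043212). Its summits were 364 bp outside the gene in ethylene and 323 bp in air. They also lay 187 and 146 bp inside SDH8, a gene of the succinate dehydrogenase complex, so SDH8 was the nearer gene. WRKY55 (AT2G40740), which promotes leaf senescence, had a fold of 4.13 in ethylene (109 fragments, rank 407; chromosome 2, 16996127 to 16996390) and 5.55 in air (28 fragments, rank 1745; 16996181 to 16996398). Here too a neighbour was nearer: the summits were 779 and 782 bp outside WRKY55 and 9 and 12 bp inside CTEXP. WRKY70 (AT3G56400), a switch between salicylic acid and jasmonic acid responses, was in the air list only, with a fold of 4.45 on 29 fragments (rank 3060), 454 bp inside the gene. WRKY54 was in neither list, with the nearest summits 4120 bp away in ethylene and 4123 bp in air. The nearest summits to WRKY53, a regulator of senescence, were 10436 bp away in ethylene and 10434 bp in air.

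Among the 17 genes of group IIc, WRKY48 was the only one bound in both lists. WRKY75 (AT5G13080), a factor of phosphate starvation, root hairs and senescence, was in the ethylene list only, with a fold of 2.93 on 77 fragments (rank 1483; chromosome 5, 4151531 to 4151702), 436 bp outside the gene. WRKY13 (AT4G39410), a factor of stem lignification and flowering time, was in the ethylene list only too, with a fold of 3.08 on 81 fragments (rank 1253; chromosome 4, 18335656 to 18335813), 855 bp outside. WRKY51 (AT5G64810), which with WRKY50 takes part in salicylic acid repression of jasmonate signalling, had 2 regions in the air list, 1 at each end. Their folds were 4.84 (27 fragments, rank 2555), 143 bp outside, and 3.80 (41 fragments, rank 3864), 322 bp outside, and the second lay 188 bp inside LIP1, a gene of a small GTPase that acts on the clock. WRKY50 was in neither list, with its nearest summit 3959 bp away in each.

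Group I had WRKY25 in both lists and WRKY4 and WRKY32 in the ethylene list only. WRKY25 (AT2G30250), a factor of heat tolerance and a close relative of WRKY33, had a fold of 3.21 in ethylene (119 fragments, rank 1083; chromosome 2, 12904925 to 12905273) and 4.04 in air (32 fragments, rank 3586; 12904969 to 12905167). Its summits lay 304 bp inside the gene in ethylene and 289 bp in air. They were nearly as close to the neighbouring gene U2B'', at 311 and 296 bp outside it. WRKY4 (AT1G13960), which acts in resistance to necrotrophic fungi, had an ethylene fold of 3.28 on 94 fragments (rank 1003), 588 bp outside. WRKY32 (AT4G30935), which takes part in light-driven seedling development, had an ethylene fold of 2.51 on 136 fragments (rank 2261), 86 bp inside. WRKY33, a central activator of camalexin synthesis and of resistance to Botrytis, was in neither list. Its nearest summits were 12861 bp away in ethylene and 12876 bp in air, and its close relative WRKY26 had them at 3553 and 3563 bp.

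Group IId held WRKY15 in both lists and WRKY11 in the air list. WRKY15 (AT2G23320), a factor of leaf growth and of the response to reactive oxygen, was the only WRKY gene with a shared region at each end. At 1 end, 167 bp inside the gene in either list, the fold was 2.45 in ethylene (210 fragments, rank 2395; chromosome 2, 9924927 to 9925150) and 4.17 in air (61 fragments, rank 3413; 9924933 to 9925132), and both lists had the same summit base. The local background there was the highest at any WRKY region, 51 in ethylene and 13.9 in air. At the other end the fold was 2.68 in ethylene (123 fragments, rank 1973), 320 bp inside, and 6.41 in air (46 fragments, rank 1156), 290 bp inside. The summits there were nearly as close to the neighbouring gene AT2G23321, at 326 and 296 bp outside it. WRKY11 (AT4G31550), a negative regulator of basal resistance together with WRKY17, had an air fold of 4.35 on 43 fragments (rank 3194), 324 bp inside the gene. The air list had 2 more regions deeper in WRKY11, at 602 and 1014 bp inside, with folds of 4.80 and 3.63. WRKY17 was not bound by the window, but 1 air region lay 633 bp inside it with a fold of 3.77. None of these air regions at WRKY11 and WRKY17 overlapped an ethylene region.

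**Figure D2:**
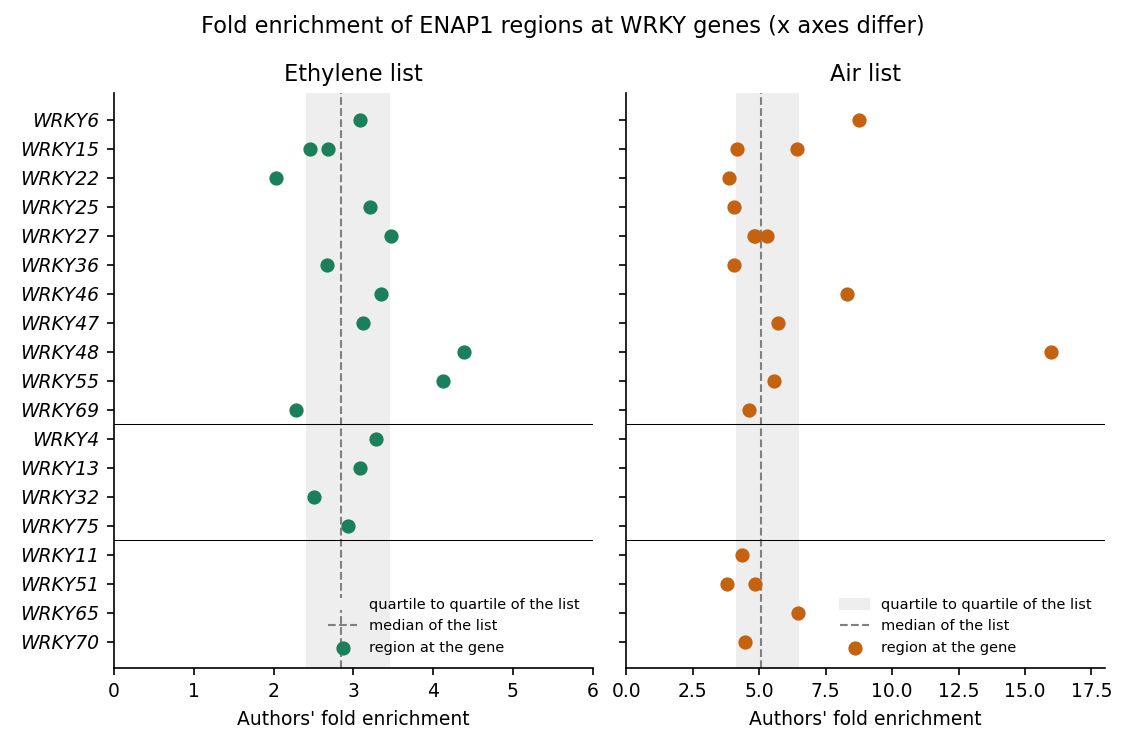
Authors' fold enrichment (x axis, a ratio; the scales of the panels differ) of each region at each bound WRKY gene (y axis), in the ethylene list on the left and the air list on the right. Dots are regions, the dashed line is the median of the whole list, the grey band runs from its lower to its upper quartile, and black lines separate genes bound in both lists, in ethylene only and in air only. WRKY48 is the highest in each panel, at 4.39 and 15.99.

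The fold enrichment of WRKY regions was set beside that of all bound genes. Taking the highest region of each bound gene, the 15 WRKY genes had a median fold of 3.08 in ethylene (range 2.03 to 4.39), against 2.85 over all 4356 bound genes. In air their median was 5.30 (3.88 to 15.99), against 5.15 over all 5751 bound genes. The order turned in air when the region nearest to a gene end stood for each gene, with medians of 4.82 for WRKY genes and 5.06 for all bound genes. By −log10 p, 50.2% of the ethylene list and 63.0% of the air list ranked above the median WRKY gene, against 47.2% and 46.4% above the median bound gene. Above the upper quartile of the list were 3 WRKY genes in ethylene (WRKY48, WRKY55 and WRKY27) and 4 in air (WRKY48, WRKY6, WRKY46 and WRKY65). Of all bound genes 25.5% reached that level in ethylene and 27.0% in air. The 4 genes in the ethylene list only had folds of 2.51 to 3.28, and the 11 bound in both had 2.03 to 4.39 in that list. The 4 genes in the air list only had folds of 4.35 to 6.48, and the 11 bound in both had 3.88 to 15.99 there. The ranges overlap in each list.

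ChIP fragments over the summit give the depth behind each fold. WRKY regions had 70 to 210 fragments in ethylene, by the scaling named above, with a median of 121, against a median of 149 for the whole list. In air they had 27 to 78, with a median of 40, against 48. The −log10 p was above the list's median at 7 of 16 WRKY regions in ethylene and 6 of 19 in air.

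Summits at WRKY genes lay on either side of the gene ends. Their median distance from the end was 312 bp in ethylene and 322 bp in air, against 178 and 167 bp over all pairs of a bound gene and a region in the same lists. Up to 200 bp inside the end lay 4 of 16 summits in ethylene (25%) and 4 of 19 in air (21.1%), where all pairs had 38.3% and 37.5%. Farther inside, up to the limit of 500 bp, lay 4 of 16 in ethylene (25%) and 7 of 19 in air (36.8%), where all pairs had 13.0% and 12.1%. Outside the gene were 8 summits in each list. WRKY6, WRKY32 and WRKY65 had summits less than 100 bp inside an end, at 39 and 42, 86 and 89 bp. WRKY13 and WRKY55 had them more than 700 bp outside. Which end is the transcription start was not determined, because the gene table gives no strand.

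The nearest protein-coding gene end was that of the WRKY gene for 14 of 16 summits in ethylene (87.5%) and 15 of 19 in air (78.9%). Over all pairs of a bound gene and a region, the bound gene had the nearest end in 63.7% and 63.4%. The exceptions were WRKY46 and WRKY55 in both lists, and WRKY36 and 1 of the WRKY51 regions in air. Close to the limits of the window, the summits of WRKY70 (454 bp inside, air) and WRKY27 (391 bp inside, ethylene) were counted. Those of WRKY8 (1146 bp outside in ethylene, 1129 bp in air) and WRKY17 were not. At WRKY8 the uncounted region had a fold of 4.84 in ethylene, at rank 195, and 8.10 in air, at rank 562, higher in the ethylene list than the region of any bound WRKY gene.

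**Figure D3:**
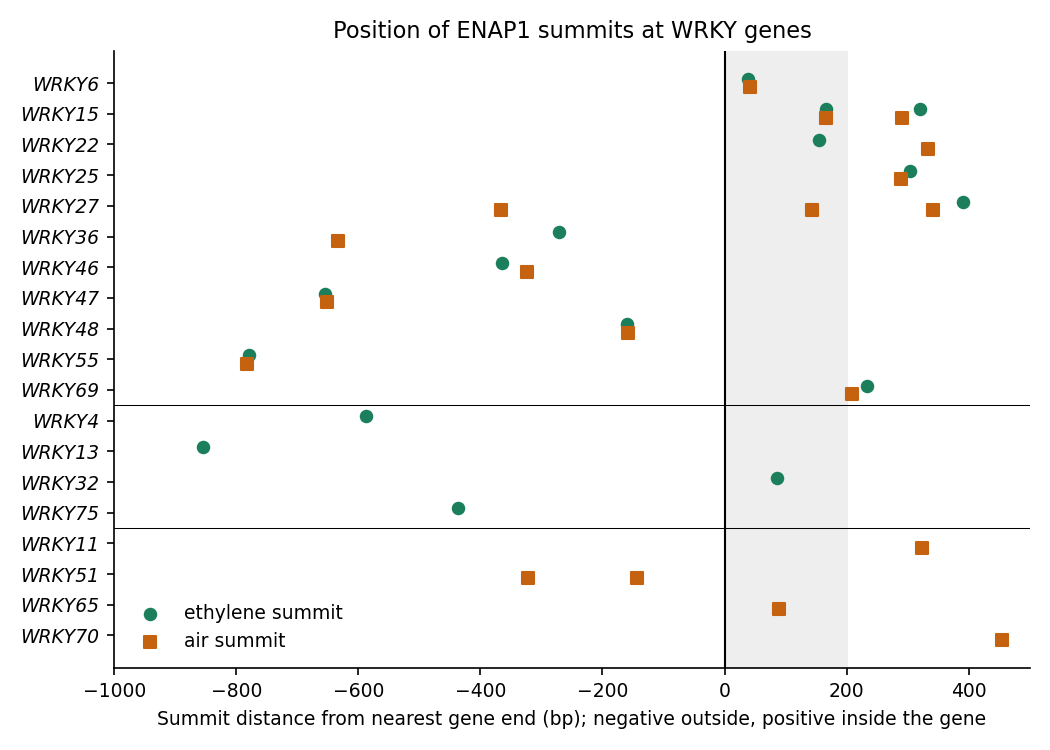
Distance in bp of each ENAP1 summit from the nearest end of the WRKY gene (x axis; negative outside and positive inside the gene, with 0 at the end) for each bound gene (y axis). Circles are ethylene summits, squares are air summits, the grey band marks the first 200 bp inside the gene, and black lines separate genes bound in both lists, in ethylene only and in air only. Of the 35 summits, 8 lie in the band.

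Of the 11 WRKY genes bound in both lists, 9 carried regions that overlapped between the lists by at least 1 bp. WRKY22 and WRKY36 were bound in both lists through regions that did not overlap, whereas 98.8% of all genes bound in both lists had a shared region in each. Overlapping an air region were 10 of the 16 ethylene regions at WRKY genes, or 62.5% (exact 95% interval 35.4 to 84.8), against 80.6% of the whole ethylene list. Overlapping an ethylene region were 10 of the 19 air regions, or 52.6% (28.9 to 75.6), against 58.7% of the whole air list. In the shared regions the summits were 0 to 50 bp apart, with a median of 9 bp, against 16 bp over all shared ethylene regions. At WRKY48, WRKY6, WRKY47 and WRKY55 they were 1 to 3 bp apart. Within the window, more than 1 region was seen at 1 of 15 bound WRKY genes in ethylene (WRKY15). In air it was 3 of 15 (WRKY15, WRKY27 and WRKY51). Of all bound genes, 6.68% in ethylene and 9.88% in air had more than 1 region in the window.

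**Figure D4:**
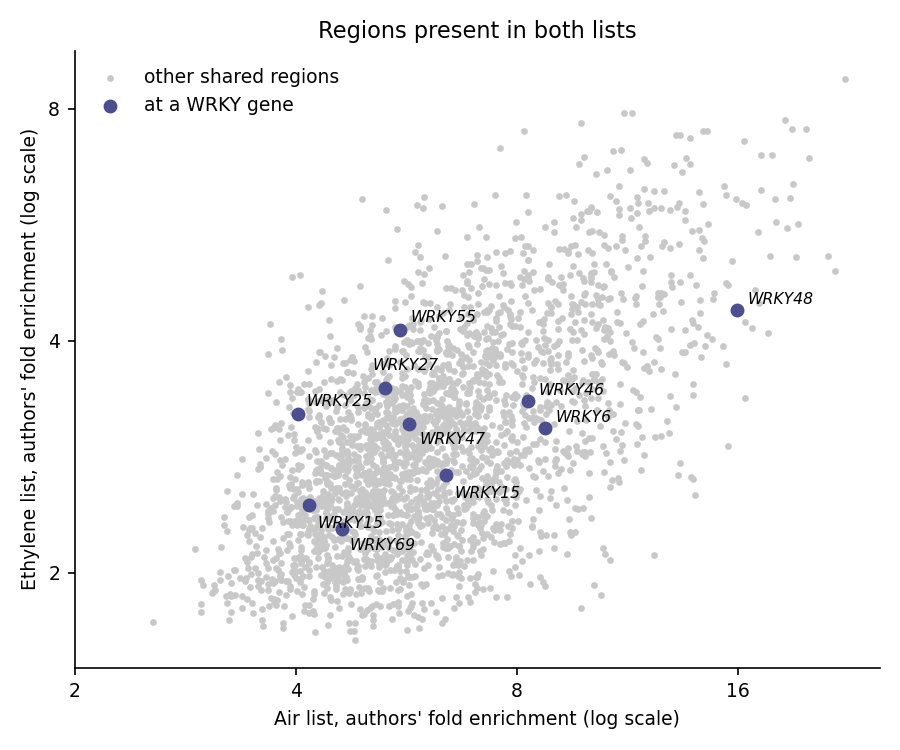
Authors' fold enrichment in the ethylene list (y axis, log scale) and in the air list (x axis, log scale) of regions that overlap between the lists. Grey points are the other shared regions and dark points the 10 at WRKY genes, of which WRKY48 is highest in both lists, with 4.39 in ethylene and 15.99 in air.

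The other 48 WRKY genes were bound in neither list. Their nearest summit was 1146 to 111128 bp from a gene end in ethylene (median 12865 bp) and 633 to 104658 bp in air (median 9903 bp). All 20981 nuclear protein-coding genes bound in neither list had medians of 12317 bp in ethylene and 9570 bp in air. A summit within 5000 bp was present for 13 of the 48 WRKY genes in ethylene (27.1%, against 22.3% of all unbound genes) and 16 in air (33.3%, against 28.7%). WRKY40, a repressor of defence and abscisic acid genes, had its nearest summit 2204 bp away in ethylene and 2193 bp in air. The neighbours WRKY64 and WRKY67 were far from any summit, at 55106 and 50090 bp in ethylene and 55182 and 50166 bp in air. WRKY genes were about as long as other genes, with a median of 2006 bp against 2078 bp. Of the 5 genes with a WRKY synonym, RRS1, a resistance gene that carries a WRKY domain, had an air region with a fold of 4.24, 189 bp outside the gene and nearer to its neighbour RPS4. ZAP1, TTG2, ABO3 and TTR1 were in neither list.

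Genes that act above, with or below WRKY factors were described in the same way. The lists of these genes were chosen with earlier results of these data known. Of 34 such genes, 7 were bound in ethylene (20.6%, against 15.9% of all genes) and 8 in air (23.5%, against 21%). Of 5 genes of immune receptors and the kinases at them, 3 were bound in both lists, where 13.3% of all genes were. With 5 genes, this was not tested. They were the chitin receptor gene CERK1 (fold 2.91 in ethylene and 4.01 in air), the co-receptor gene BAK1 (3.09 and 4.99) and BIK1 (3.22 and 6.21), which encodes a cytoplasmic kinase at the receptors. The receptor genes FLS2 and EFR were in neither list. Of 8 genes of the kinase cascades, MPK3 was bound in both lists (2.03 in ethylene and 3.76 in air), and MKK5 (5.85) and MEKK1 (5.99) in the air list only. MPK4, MPK6, MKK1, MKK2 and MKK4 were in neither.

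The remaining lists hold 6, 6 and 9 genes, too few to set their counts apart from the share of all genes. In at least 1 list 23.5% of all genes were bound. Of 6 genes listed as VQ-motif partners, SIB2 was bound in both lists, with a fold of 2.60 in ethylene and 5.13 in air, and AT1G78410 in the ethylene list only (3.01). No member of the 6 salicylic acid defence genes, EDS1, PAD4, ICS1, NPR1, NIMIN1 and NIMIN2, was in either list. Of 9 target genes, SAG12, a marker of senescence, was the only one bound, with a fold of 6.07 in ethylene (rank 52) and 9.59 in air (rank 342). Its summits were 249 bp and 224 bp outside the gene, and the nearest gene end in both lists was that of APG7. The summit of MKK5 was likewise nearer to AT3G21215, and that of AT1G78410 to AT1G78420.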

How the data were processed

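Each treatment has 1 deposited peak list, which the labels tie to both of its ChIP samples. The tools were BWA on TAIR10 and, for the regions, MACS2 version 2.1.0.20150603, per the submitters' processing notes. Why the lists are named optimal is not stated. The deposited fold enrichment is a ratio at the summit, (pile-up + 1) over (local background + 1), and the deposited −log10 p and −log10 q are the peak caller's. The deposited score repeats −log10 p (times 10, rounded down, in 100% of regions) and was left aside. Positions are counted from 1. Sequencing depth per library is unknown here.

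Pile-up and background were solved from fold and −log10 p (scipy 1.17.1, Python 3.11.15). Air pile-ups came out within 0.01 of whole numbers in 100% of regions. In the ethylene list only 908 regions had 1 possible pile-up. The factor of 0.602 was fitted to these, and 100% of them were whole numbers times 0.602, within 0.05 fragments. For other regions the possible pile-up closest to such a number was taken. The 99.9% within 0.05 over all ethylene regions was therefore partly fixed by that choice. Pile-ups were divided by the factor as a scaling of the ChIP, which no label states.

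Gene ends came from the RefSeq table of TAIR10.1, without strand or sequence, so the planned counts of W-boxes and at transcription starts were not made. Summits up to 200 bp inside a gene end made up 53.4% in ethylene and 51.8% in air, and 19.3% to 20.8% after a shift of 200 bp. The assignment of summits was tested on simulated regions.

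Family groups and pathway genes are textbook lists. All 34 pathway loci were found, and the members and lists were chosen with earlier results of these data known. All bound genes are named. No test between treatments or against other genes was made. Nothing in the labels says that the samples of a group came from separate seedlings.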

Additional observations from a re-analysis of the deposited data

How the results depend on the processing

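With a window from 500 bp outside to 200 bp inside, 8 of 67 WRKY genes were bound in ethylene, 7 in air and 4 in both lists. The share of all genes was 11.6% in ethylene, close to the WRKY share, and 15.8% in air, above it. Pathway genes bound in ethylene fell to 4, and WRKY summits inside the gene to 4 in each list. With only the regions above the list's median −log10 q, 7 WRKY genes were bound in ethylene, 5 in air and 4 in both lists. In 1 list only were 4, of which 1 was in air. Of all genes, 8.34% were bound in ethylene, below the WRKY share, and 11.3% in air, above it. Bound pathway genes were 3 in ethylene and 4 in air. For this setting and the narrower window, the share of all genes in both lists or in 1 list only was not counted. Those WRKY counts therefore have no comparison. By fold, 38.0% of the ethylene list and 44.0% of the air list ranked above the median bound WRKY gene, and by −log10 p 50.2% and 63.0%. With the region nearest to a gene end, the median air fold was 4.82, below that of all bound genes (5.06). A wider window, the nearest gene only and any overlap of the window kept all counts within 1.5 times. With the wider window, 17 of 67 WRKY genes were bound in ethylene, above the share of all genes (20.7%). In air they were 18, close to that share (26.9%). By the nearest gene only they were 13 in ethylene and 12 in air, above the shares of all genes (10.5% and 14.1%). By any overlap they were 15 in each list, above 16.5% in ethylene and 21.7% in air. Leaving out regions at 5 or more times the lowest background (chosen after seeing the data) changed no count. No WRKY region in either list had so high a background, so that setting could not change the WRKY counts. Transcription starts and motifs were not run. No paired analysis was possible because the authors merged the replicates of a treatment into 1 list. No replicate could be left out either.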
